A study of Homo sapiens with 21 samples.

Results

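The genes described here are 7 related zinc finger genes that lie on the long arm of human chromosome 7, at 7q11: ZNF736, ZNF680, ZNF107, ZNF138, ZNF273, ZNF117 and ZNF92. They were chosen by symbol and chromosomal position after earlier results of these data were known: ZNF107, ZNF117 and ZNF92 had been singled out for lower counts at 1 µM caffeine than in the control, and the other 4 are their relatives in the cluster. Of the 7 genes, 6 were found by their Ensembl identifiers among the 37637 features of the count table, and all 6 passed the filter on low counts. ZNF736 was not analysed here. The cells were HepG2, an established human line from a liver tumour, and every group was kept in serum-free medium for 24 h before RNA was taken. The control received no caffeine and the other groups received 0.01, 0.1, 1, 10, 100 or 1000 µM, with 3 replicates in each of the 7 groups, so 21 libraries of poly(A)-selected RNA in all. Since nothing in the labels says that replicates came from separate cultures, p-values measure the spread between these samples only.

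Krüppel-associated box (KRAB) zinc finger proteins are DNA-binding repressors. Their zinc fingers read DNA sequence, often within transposable elements, and the KRAB domain of most of them recruits the corepressor TRIM28, which brings the histone methyltransferase SETDB1 and heterochromatin proteins. The family grew by repeated duplication, which is why its genes stand in clusters and resemble one another. Caffeine blocks adenosine receptors and, at high concentrations, phosphodiesterases and kinases of the DNA damage response. In liver cells it is broken down by the cytochrome CYP1A2.

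On GRCh38, with the GENCODE 29 annotation, the genes follow one another along chromosome 7. ZNF680 lies at chr7:64519884-64563106 on the minus strand, ZNF107 at chr7:64666083-64711582 on the plus strand, ZNF138 at chr7:64794388-64833681 on the plus strand and ZNF273 at chr7:64870172-64930966 on the plus strand. ZNF117 lies at chr7:64971776-65006684 on the minus strand and ZNF92 at chr7:65373799-65401135 on the plus strand. All are annotated as protein-coding. ERV3-1, the envelope gene of an endogenous retrovirus, lies at chr7:64990809-65006743 on the minus strand and overlaps ZNF117. Of 4 annotated ZNF117 transcripts, a form with a retained intron starts at position 65006684, next to the start of the coding ERV3-1 transcript at 65006653. The longest coding form of ZNF117 starts at 64991036, inside ERV3-1. For these reasons ERV3-1 was followed beside the zinc finger genes, although it is not one of them.

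The promoters show how closely the genes are related. Those of 5 of the zinc finger genes and of ERV3-1 are printed here because one short word recurs in all of them and a longer one in all but ZNF138. Each line gives 100 bases before to 30 bases after a RefSeq start (GRCh38.p14), 5′ to 3′ on the strand of the gene. Capitals mark the word CCAATCA, which contains the CCAAT box bound by the factor NF-Y, and the longest word that at least 6 of 7 such windows share, GGGGCCTTTGTCTC. They do not overlap each other. In order, the stretches are chr7:64563042-64563171 (minus), chr7:64666033-64666162 (plus), chr7:64794328-64794457 (plus), chr7:64903173-64903302 (plus, the downstream of 2 listed starts), chr7:65006658-65006787 (minus, the upstream of 2 listed starts) and chr7:65373755-65373884 (plus).
ZNF680: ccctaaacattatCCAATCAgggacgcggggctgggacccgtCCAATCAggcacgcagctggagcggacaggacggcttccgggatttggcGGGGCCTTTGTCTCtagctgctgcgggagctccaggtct
ZNF107: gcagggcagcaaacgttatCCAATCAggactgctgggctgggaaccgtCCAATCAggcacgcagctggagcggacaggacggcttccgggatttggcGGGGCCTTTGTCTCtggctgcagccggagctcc
ZNF138: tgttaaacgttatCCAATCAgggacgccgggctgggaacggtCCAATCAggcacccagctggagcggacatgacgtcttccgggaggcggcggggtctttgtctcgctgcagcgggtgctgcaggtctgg
ZNF273: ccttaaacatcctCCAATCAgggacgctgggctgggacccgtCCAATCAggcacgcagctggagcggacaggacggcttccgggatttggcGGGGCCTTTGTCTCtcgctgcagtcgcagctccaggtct
ERV3-1: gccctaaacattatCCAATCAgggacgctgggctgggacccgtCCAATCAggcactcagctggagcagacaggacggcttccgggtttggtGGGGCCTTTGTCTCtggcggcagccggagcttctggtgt
ZNF92: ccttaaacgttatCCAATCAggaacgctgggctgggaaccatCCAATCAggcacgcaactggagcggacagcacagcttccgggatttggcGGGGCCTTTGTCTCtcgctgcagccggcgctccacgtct

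Each of these promoters held CCAATCA in 2 copies. The copies began 87 and 58 bases before the start in ZNF680, ZNF138, ZNF273 and ZNF92 (positions -87 and -58), at -81 and -52 in ZNF107 and at -86 and -57 in ERV3-1. The 14-base word began at -9, or at -3 in ZNF107, and was not in the ZNF138 window. Over 35116 RefSeq windows of 300 bases, searched on both strands, 6.95% held CCAATCA, 1.1% held it in 2 copies or more, and 0.057% (20 windows of 20 genes) held GGGGCCTTTGTCTC or its reverse complement GAGACAAAGGCCCC. Of those 20 genes, 16 have symbols starting with ZNF; 12 lie on chromosome 19 and 6 on chromosome 7. Between the 7 related windows, the 6 printed here and that of ZNF736, identity ranged from 57.0% to 84.8%, with a median of 79.9% over 21 pairs. Pairs with ZNF736 lay at 57.0% to 61.6%, and pairs among the 6 printed windows at 76.4% to 84.8%. The RefSeq window of ZNF117 (chr7:64990987-64991286) and the upstream window of ZNF273 (chr7:64877353-64877652) held neither word. A match of letters is a description and shows no binding.

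Because paralogs share sequence, the uniqueness of the transcripts was checked. The share of a gene's 50-base transcript words that occur in another gene was 1.6% for ZNF680, 0.5% for ZNF107, 0.7% for ZNF138 and 1.0% for ZNF92. It was 11.4% for ZNF273, mostly with the antisense transcript AC073349.1, and 4.3% for ZNF117, mostly with ERV3-1. Exons of ZNF117 and ERV3-1 on the same strand share 372 bases, which is 3.5% of the ZNF117 exons and 8.1% of the ERV3-1 exons. Exons of ZNF273 and AC073349.1 share 771 bases on opposite strands. How the authors assigned such reads is not given in the sources used here, so the counts of ZNF273 and of ZNF117 with ERV3-1 are less certain than those of the other genes.

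Library totals ran from 23502519 to 44815552 counts. The libraries fell into 3 sets by their mitochondrial transcripts, and these sets cross the doses unevenly. Set A had 9.95% to 14.16% mitochondrial counts and held all control, 0.01 and 0.1 µM libraries and 1 µM replicates 1 and 2. Set B had 4.72% to 4.94% and held 1 µM replicate 3, all 10 µM libraries, 100 µM replicate 2 and 1000 µM replicates 1 and 2. Set C had 11.75% to 12.82% and held 100 µM replicates 1 and 3 and 1000 µM replicate 3. What the sets are is not given by the labels. Hepatocyte markers were present in every library, with albumin (ALB) at 6110 to 15300 CPM, the counts scaled to a common library size. The connective tissue genes COL1A2, COL3A1, DCN and LUM and the leukocyte gene PTPRC had at most 2 counts in any library, whereas LYZ (801 to 1900 CPM) and PDGFRB (2.98 to 23.5 CPM) were present in all. Marker sums moved with the highest dose: the 9 hepatocyte markers summed to 28200 to 29500 CPM in the 1000 µM libraries and to at least 33700 CPM in all others. The 5 connective tissue markers, nearly all of it PDGFRB, summed to 18.2 to 23.5 CPM at 1000 µM and to 2.98 to 6.49 CPM elsewhere. The 5 leukocyte markers, nearly all of it LYZ, summed to 1350 to 1900 CPM at 1000 µM and 1560 to 1640 CPM at 100 µM, against 802 to 1260 CPM below those doses. The part of these shifts in the results at 1000 µM was not tested. In bulk RNA such as this, a lower level in every cell and a lower share of cells with the transcript cannot be told apart.

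The 6 genes were expressed at low to moderate levels. Per kilobase of annotated exon, the control levels were 7.07 ± 0.606 CPM per kb for ZNF92, 3.58 ± 0.152 for ZNF138, 2.64 ± 0.514 for ZNF680, 1.76 ± 0.153 for ZNF107, 1.75 ± 0.261 for ZNF117 and 0.774 ± 0.012 for ZNF273 (mean ± SD, n = 3). ERV3-1 stood at 5.03 ± 0.399 CPM per kb. The exon lengths come from GENCODE 29 and may differ from the transcripts these cells use, so the order between genes is approximate. All further levels are in CPM and are compared only within a gene.

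**Figure D1:**
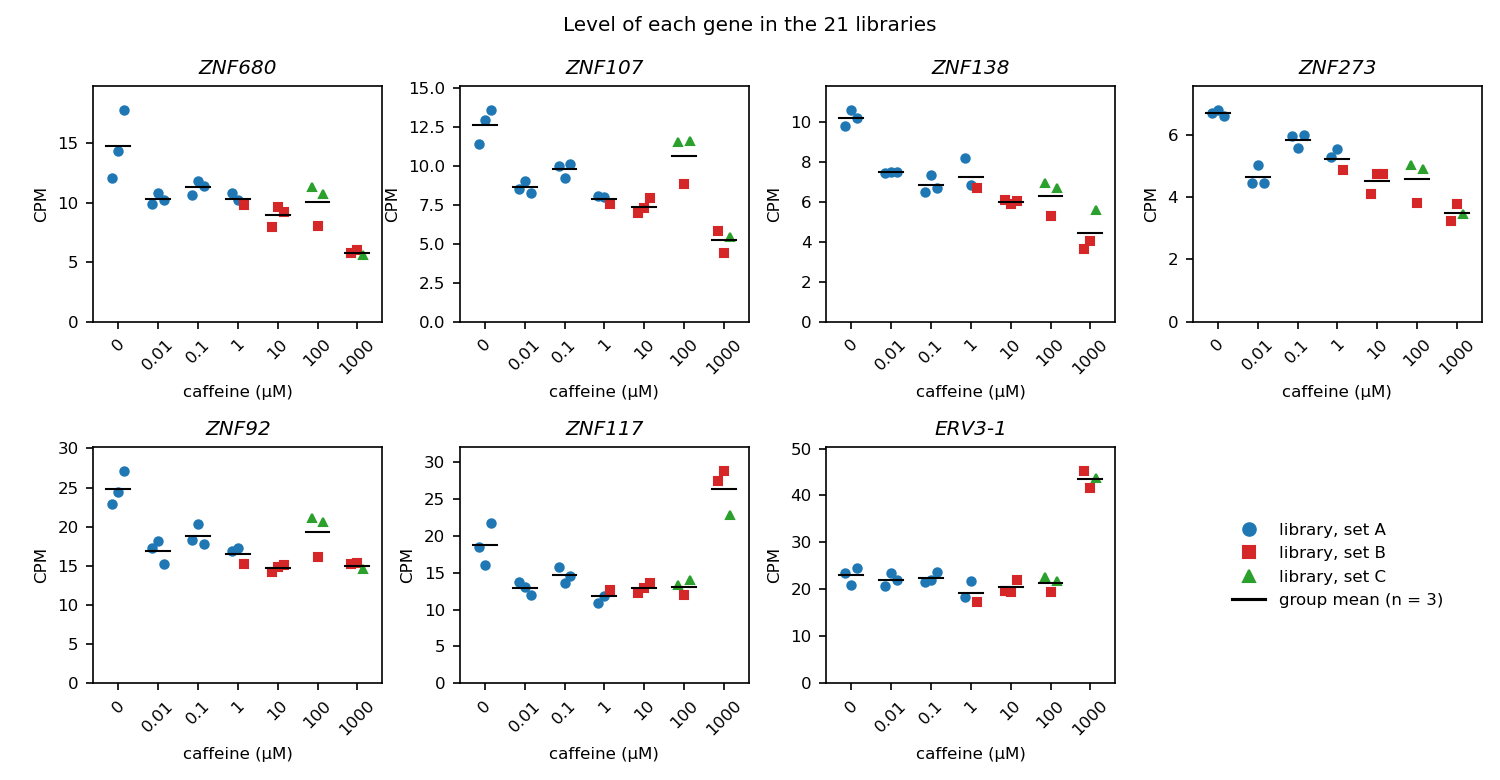
CPM of 6 zinc finger genes and ERV3-1 in each of the 21 libraries (y axes, from 0) against caffeine dose in µM (x axes); symbols give the library set and bars the mean of 3 libraries. At 1000 µM the ZNF117 libraries sit at 22.8 to 28.8 CPM and the ERV3-1 libraries at 41.6 to 45.2 CPM, above all others, while ZNF680 libraries sit at 5.56 to 5.99 CPM, below all others.

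ZNF680, a KRAB zinc finger gene with no well-described target, had 12.1, 14.3 and 17.8 CPM in the control libraries. It had 9.91, 10.8 and 10.2 CPM at 0.01 µM, 10.6, 11.8 and 11.4 at 0.1 µM and 10.8, 10.2 and 9.83 with 1 µM. In the 10 µM group it had 7.92, 9.63 and 9.24 CPM, at 100 µM 11.3, 8.04 and 10.7, and at 1000 µM 5.77, 5.99 and 5.56. All control libraries lay above, and all 1000 µM libraries below, those of every other group. The groups in between overlapped with their neighbours in order.

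ZNF107 had 11.4, 12.9 and 13.6 CPM in the control libraries. Its levels were 8.53, 9.04 and 8.26 CPM at 0.01 µM, 10.0, 9.22 and 10.1 at 0.1 µM and 8.09, 7.99 and 7.56 at 1 µM. They were 6.96, 7.27 and 7.93 CPM at 10 µM, 11.5, 8.83 and 11.6 at 100 µM and 5.82, 4.43 and 5.43 at 1000 µM. ZNF107 was thus high again at 100 µM, where replicates 1 and 3, the set C libraries, overlapped the control range, and lowest at 1000 µM.

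ZNF138 had 9.78, 10.6 and 10.2 CPM in the control and 7.42, 7.48 and 7.5 CPM at 0.01 µM. It had 6.48, 7.35 and 6.68 CPM with 0.1 µM, 8.16, 6.81 and 6.67 with 1 µM and 6.06, 5.88 and 6.01 with 10 µM. At the highest doses it had 6.93, 5.27 and 6.66 CPM (100 µM) and 3.65, 4.04 and 5.56 CPM (1000 µM). The control libraries lay above all others. Replicate 3 at 1000 µM, a set C library, overlapped the 100 µM range.

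ZNF273 was the gene with the fewest counts. It had 6.69, 6.8 and 6.6 CPM in the control, 4.44, 5.03 and 4.45 with 0.01 µM, 5.94, 5.56 and 5.99 with 0.1 µM and 5.28, 5.55 and 4.85 with 1 µM. In the 10 µM group it had 4.11, 4.72 and 4.74 CPM, at 100 µM 5.02, 3.79 and 4.9 and at 1000 µM 3.24, 3.76 and 3.44. Control was again highest and 1000 µM lowest, both with no overlap with the next group in order.

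ZNF92, the member farthest from the centromere, had 22.9, 24.4 and 27.1 CPM in the control. It had 17.3, 18.2 and 15.2 CPM at 0.01 µM, 18.3, 20.3 and 17.8 at 0.1 µM and 16.9, 17.3 and 15.2 at 1 µM. It had 14.2, 14.8 and 15.1 CPM at 10 µM, 21.1, 16.1 and 20.6 at 100 µM and 15.2, 15.3 and 14.6 at 1000 µM. The control was highest here too, but 1000 µM was not the lowest group: it overlapped with 10 µM.

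ZNF117, whose transcription unit overlaps ERV3-1, had 18.5, 16.1 and 21.7 CPM in the control. It had 13.8, 13.1 and 12 CPM at 0.01 µM, 15.8, 13.6 and 14.6 at 0.1 µM and 10.9, 11.9 and 12.6 at 1 µM. It had 12.2, 12.9 and 13.6 CPM at 10 µM and 13.3, 12 and 14.0 at 100 µM. At 1000 µM its levels were 27.4, 28.8 and 22.8 CPM, above every other library. Below 1000 µM it followed the other genes in having its highest libraries in the control; at 1000 µM it alone of the 6 was at its highest.

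ERV3-1 had 23.4, 21.0 and 24.5 CPM in the control and 45.2, 41.6 and 43.7 CPM at 1000 µM. In the 15 libraries of the other doses it ranged from 17.3 to 23.7 CPM. Unlike ZNF117, its control libraries overlapped those at 0.01, 0.1, 1, 10 and 100 µM.

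Against the control, every dose up to 10 µM had all 3 libraries of all 6 genes below all control libraries. Across all 17951 features tested, such a split to the lower side occurred in 13.0%, 11.0%, 8.85% and 19.4% for 0.01, 0.1, 1 and 10 µM. The control comparisons are given as a description, because the genes were picked partly on the 1 µM difference from these same control libraries, which all the control comparisons share. At 1 µM the log2 fold change was -0.68 ± 0.117 (SE) for ZNF107, -0.66 ± 0.115 for ZNF117 and -0.59 ± 0.104 for ZNF92. Those 3 genes passed a Benjamini-Hochberg adjusted p of 0.05 in edgeR's quasi-likelihood fit, where 0.0947% of features were lower. None of the 3 passed in most fits that left out 1 of the 21 libraries, although the log2 fold changes in those fits stayed at -0.75 to -0.62 for ZNF107, -0.76 to -0.54 for ZNF117 and -0.64 to -0.52 for ZNF92. DESeq2 gave 5 of 6 at 1 µM (3.87% of features) and limma 3 of 6 (0.15%). With no filter, with the replicate number as a term or with only these 2 groups in the fit, none of the 6 passed. In edgeR's fit of all 21 libraries, ZNF680, ZNF138 and ZNF273 stood at -0.52, -0.50 and -0.36.

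The 6 genes had a median log2 fold change against control of -0.53 with 0.01 µM and -0.37 with 0.1 µM. It was -0.74 for the 10 µM group, -0.54 for the 100 µM group and -1.08 at the highest dose, while that of all features lay between -0.01 and 0.01. By the same threshold, 0 of 6 passed at 0.01 µM and 0 at 0.1 µM, where 0.0279% and 0.0% of features passed. At an unadjusted p of 0.05, 6 of 6 and 5 of 6 passed there, as did 2698 and 1701 of all features; DESeq2's Wald test gave 5 and 1 after adjustment, where 3.27% and 0.337% of the features with an adjusted p passed. By limma the counts were 0 and 0, with 0.0501% and 0.0% of features. At 10 µM 6 of 6 were lower (7.49% of features were), and with 100 µM 5 of 6 were lower, all but ZNF107 (22.9% of features were). In the 1000 µM group 5 of 6 were lower and ZNF117 was higher, where 29.1% of features were lower and 28.5% higher. With the library set as a term in the fit, 6 genes passed for the lowest dose (3.02% of features did), 1 for 0.1 µM (0.0223%) and 3 for 1 µM (0.629%). By that fit, 0 passed for 10 µM (0.0279%), 1 for 100 µM (17.3%, ZNF138) and 5 for 1000 µM (38.0%), where ZNF117 stood at 0.37 (edgeR adjusted p = 0.168). The folds themselves moved less than the calls. For 10 µM the 6 genes stood at -0.77 to -0.54 without the term and at -0.68 to -0.41 with it, with SEs of 0.105 to 0.134 and 0.165 to 0.223. For 100 µM they stood at -0.70 to -0.25 without and -0.84 to -0.32 with it, with SEs of 0.104 to 0.135 and 0.179 to 0.243. All 10 µM libraries belong to set B and all control libraries to set A, so dose and set cannot be told apart directly in that comparison.

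The comparisons between doses other than 1 µM do not contrast the libraries on which the genes were picked, and were tested. The control and 1 µM libraries still entered the fit of all 21 libraries through the filter and the shared estimate of spread. In fits with the library set as a term they did more: sets A and B meet in the 1 µM group alone, so its libraries fix the offset between those sets. From 0.01 to 0.1 µM, none of the 6 genes passed in the edgeR fit, and 0.0% of all features did. At an unadjusted p of 0.05, 1 of the 6 (ZNF273) and 247 of the 17951 features passed. DESeq2 and limma also gave 0 of 6, where 0.0114% and 0.0% of the features they tested passed. From 0.1 to 10 µM, 3 of 6 genes fell, against 7.0% of all features: ZNF107 by 0.40 ± 0.118 on the log2 scale (edgeR adjusted p = 0.0275), ZNF273 by 0.37 ± 0.118 (edgeR adjusted p = 0.0417) and ZNF92 by 0.36 ± 0.105 (edgeR adjusted p = 0.0295). ZNF680, ZNF138 and ZNF117 stood at -0.34, -0.19 and -0.18 and did not pass. Here too the doses are in different library sets, A and B, and dose and set cannot be told apart. None of the 3 passed with the set as a term (0.0223% of features did), and leaving out any single 0.1 or 10 µM library left 0 or 1 of them. With no filter on low counts they also missed the threshold (edgeR adjusted p = 0.0579 for ZNF107, 0.151 for ZNF273 and 0.0573 for ZNF92). With the term, ZNF107 stood at -0.31, ZNF273 at -0.21 and ZNF92 at -0.19. Over all fits with 1 library left out, ZNF107 stayed at -0.46 to -0.36, ZNF273 at -0.40 to -0.30 and ZNF92 at -0.39 to -0.29. ZNF273 also missed the threshold without control replicate 1 (edgeR adjusted p = 0.0514) or 2 (0.0508), 0.01 µM replicate 1 (0.0515) or 3 (0.0511), or 1 µM replicate 1 (0.0507). With the replicate number as a term, ZNF273 stood at -0.37 and again missed the threshold (edgeR adjusted p = 0.0592).

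**Figure D2:**
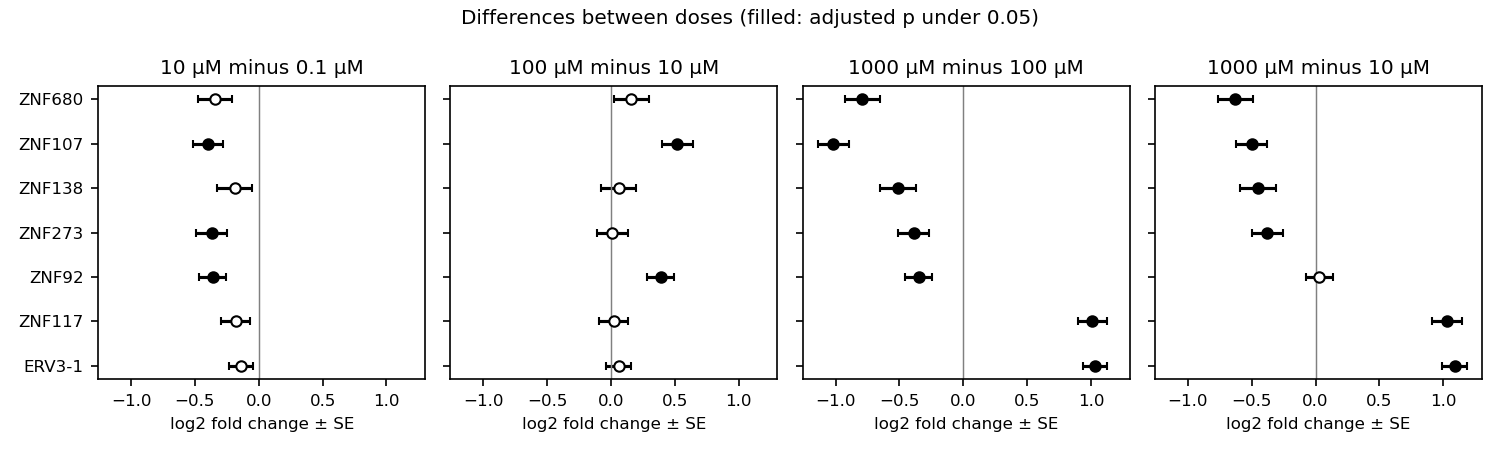
Log2 fold change with its standard error (x axis) for each gene (y axis) between 4 pairs of doses, from the edgeR fit of all 21 libraries; filled points passed an adjusted p of 0.05. At 1000 µM, ZNF117 and ERV3-1 lie at 1.01 to 1.09 and ZNF680, ZNF107, ZNF138 and ZNF273 lie below 0 against both lower doses, whereas ZNF92 lies at -0.35 against 100 µM and at 0.03 against 10 µM.

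From 10 to 100 µM, 2 of 6 genes rose, ZNF107 by 0.52 ± 0.118 (edgeR adjusted p = 0.00206) and ZNF92 by 0.39 ± 0.105 (edgeR adjusted p = 0.00807), where 17.8% of all features rose. The other 4 had log2 fold changes from 0.01 to 0.16. The library sets moved with this result: ZNF107 had 11.5 and 11.6 CPM in the set C libraries at 100 µM and 8.83 CPM in the set B library, against 6.96 to 7.93 CPM in the set B libraries at 10 µM. For ZNF92 the set C libraries had 21.1 and 20.6 CPM and the set B library 16.1 CPM, against 14.2 to 15.1 CPM. With the set as a term, ZNF107 stood at 0.35 (edgeR adjusted p = 0.0501) and ZNF92 at 0.27 (edgeR adjusted p = 0.0978), where 28.7% of features passed. Without 100 µM replicate 1, ZNF92 stood at 0.31 (edgeR adjusted p = 0.0539).

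From 100 to 1000 µM all 6 genes changed, 5 lower and 1 higher, where 22.3% of all features fell and 21.8% rose. ZNF107 fell by 1.02 ± 0.121 on the log2 scale, from a mean of 10.6 ± 1.58 to 5.23 ± 0.716 CPM (SD, n = 3; edgeR adjusted p = 1.58e-06). ZNF680 fell by 0.79 ± 0.138 (edgeR adjusted p = 0.000136), ZNF138 by 0.51 ± 0.14 (0.00581), ZNF273 by 0.39 ± 0.122 (0.0146) and ZNF92 by 0.35 ± 0.106 (0.0107). ZNF117 rose by 1.01 ± 0.115, from 13.1 ± 1.03 to 26.3 ± 3.18 CPM (SD, n = 3; edgeR adjusted p = 8.51e-07). ERV3-1 rose by 1.03 ± 0.0968 (edgeR adjusted p = 7.13e-08). The median of the 6 was -0.45, beside 0.0 for all features. All 6 also passed with the library set as a term, where 46.3% of features did.

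Within the sets the same comparison can be read from single libraries. In set B, ZNF107 had 8.83 CPM at 100 µM and 5.82 and 4.43 at 1000 µM; in set C it had 11.5 and 11.6 against 5.43. ZNF138 had 5.27 CPM against 3.65 and 4.04 in set B, and 6.93 and 6.66 against 5.56 in set C. ZNF117 had 12 CPM against 27.4 and 28.8 in set B, and 13.3 and 14.0 against 22.8 in set C. ZNF273 and ZNF92 differed little in set B: ZNF273 had 3.79 CPM at 100 µM and 3.24 and 3.76 at 1000 µM, and ZNF92 had 16.1 against 15.2 and 15.3. In set C, ZNF273 had 5.02 and 4.9 CPM against 3.44, and ZNF92 had 21.1 and 20.6 against 14.6. The calls of 3 genes rested on single libraries. Without 1000 µM replicate 1, ZNF138 had an edgeR adjusted p of 0.0503 and ZNF273 one of 0.073. ZNF273 also missed the threshold without 100 µM replicate 1 (edgeR adjusted p = 0.0741) or replicate 3 (0.0581), and ZNF92 without 100 µM replicate 1 (0.0592). With only these 2 groups in the fit, 3 of 6 passed, ZNF138, ZNF273 and ZNF92 being those that did not, with nearly the same folds of -0.52, -0.40 and -0.36.

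From 10 to 1000 µM, 5 of 6 genes changed, 4 lower and 1 higher, where 26.0% of all features fell and 26.1% rose. ZNF680 fell by 0.63 ± 0.137 on the log2 scale, from 8.93 ± 0.895 to 5.77 ± 0.216 CPM (SD, n = 3; edgeR adjusted p = 0.000731). ZNF107 fell by 0.50 ± 0.121 (edgeR adjusted p = 0.00194), ZNF138 by 0.45 ± 0.139 (0.0108) and ZNF273 by 0.38 ± 0.121 (0.0126). For these 4 genes every 1000 µM library lay below every 10 µM library, as it did for 29.7% of all features. ZNF117 rose by 1.03 ± 0.115 (edgeR adjusted p = 3.59e-07), and ERV3-1 by 1.09 ± 0.0966 (edgeR adjusted p = 1.75e-08), which is a 2.13-fold higher level. The ZNF92 difference was 0.03 ± 0.106 with an approximate 95% interval from -0.17 to 0.24 (edgeR adjusted p = 0.82).

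This comparison can be repeated inside set B alone, with 3 libraries at 10 µM and 2 at 1000 µM. There ZNF680 stood at -0.63, ZNF107 at -0.53, ZNF138 at -0.66 and ZNF273 at -0.40, ZNF117 at 1.1 and ERV3-1 at 1.07, and these 6 passed (largest edgeR adjusted p = 0.0235, for ZNF273). ZNF92 stood at 0.03 (edgeR adjusted p = 0.721). In the fit of all doses without 1000 µM replicate 1, ZNF138 was at -0.32 (edgeR adjusted p = 0.08) and ZNF273 at -0.33 (edgeR adjusted p = 0.0605), so that 3 of 6 passed. With only the 10 and 1000 µM groups in the fit, ZNF138 was at -0.47 (edgeR adjusted p = 0.0595) and 4 of 6 passed.

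ZNF117 therefore changed its standing among its relatives at 1000 µM. The ratio of its CPM to the summed CPM of ZNF680, ZNF107, ZNF138, ZNF273 and ZNF92 was between 0.222 and 0.316 in all 18 libraries of the control and the doses up to 100 µM. At 1000 µM it was 0.815, 0.86 and 0.658. The ratio of ERV3-1 to ZNF117 ranged from 1.13 to 1.92 over the 21 libraries and did not set the 1000 µM libraries apart. Instead it was lowest in the control, at 1.27, 1.3 and 1.13, with every library of the other groups at 1.36 or above. The low control ratio is a description only, because ZNF117 was picked partly for lower counts at 1 µM than in these control libraries. ERV3-1 itself overlapped its control range at every dose below 1000 µM. Since the 2 genes share exons on one strand, reads from one could be counted for the other, and the size of that share was not tested.

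**Figure D3:**
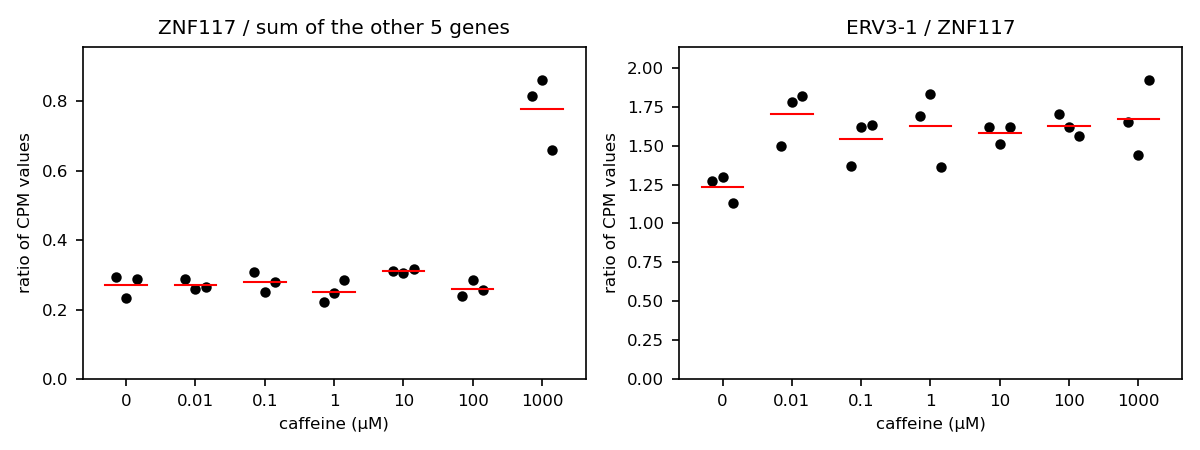
Left, CPM of ZNF117 divided by the summed CPM of the other 5 genes; right, CPM of ERV3-1 divided by that of ZNF117 (y axes, from 0), for each library against caffeine dose in µM, with bars at the mean of 3. The left ratio is 0.658 to 0.86 at 1000 µM and at most 0.316 elsewhere. The right ratio ranges from 1.13 to 1.92 with the control libraries lowest, at 1.13 to 1.3. These control ratios are a description only, since ZNF117 was picked partly on the control libraries.

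The genes other than ZNF117, which was set apart after its values were seen, had similar profiles over the 21 libraries. Pearson correlations of log2 CPM over these libraries ranged from 0.735 (ZNF138 with ZNF92) to 0.915 (ZNF680 with ZNF273). They are a description, since the libraries share doses and sets and include the control and 1 µM libraries used to pick genes. Dose group means were not subtracted, so differences between doses enter these values. The same holds for the closest genes named below. With the mean of each library set subtracted, the range was 0.553 (ZNF138 with ZNF92) to 0.892 (ZNF680 with ZNF107). ZNF117 correlated with ERV3-1 at 0.884 and with the other 5 genes at -0.378 to 0.105. Among 13129 other genes, those closest to the mean profile of the 6 genes, ZNF117 included, were ETAA1, an activator of the ATR checkpoint kinase (0.956), the zinc finger gene ZNF675 (0.923), the centrosomal genes CEP70 (0.902) and CEP162 (0.891), and ZNF267 (0.884). After that subtraction the closest were RTKN2 (0.932), SGO2, a protector of centromeric cohesion (0.921), ETAA1 (0.919), ZGRF1 (0.894) and CCNG2 (0.892).

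Close relatives of these genes are the ZNF91 subfamily on chromosome 19, at 19p12. Of 29 listed, 20 could be tested. From 10 to 1000 µM 7 fell and 0 rose, with a median log2 fold change of -0.13, where 26.0% of all features fell and 26.1% rose. From 100 to 1000 µM 8 fell and 1 rose, with a median of -0.46, where 22.3% fell and 21.8% rose. The medians of all features were 0.02 and 0.0. ZNF43 went from 8.1 ± 0.693 CPM at 10 µM to 4.53 ± 1.08 at 1000 µM (log2 fold change -0.85), ZNF737 from 8.33 ± 0.505 to 4.79 ± 0.889 (-0.80) and ZNF430 from 9.96 ± 1.31 to 5.87 ± 0.216 (-0.76; SD, n = 3 for each). The list of genes whose promoter window holds GGGGCCTTTGTCTC, drawn up after the values of the cluster were seen, is for the most part the same genes: of its 9 tested genes outside chromosome 7, 8 are in the 19p12 list and ZNF695 is the other, so its counts are no separate result. Outside chromosome 7 it held 14 genes, and of the 9 tested 5 fell and 0 rose from 10 to 1000 µM (median -0.55), and 4 fell and 0 rose from 100 to 1000 µM (median -0.46), beside the same shares of all features. Beside ZNF43 and ZNF737, those that fell from 10 µM were ZNF682 (-0.55), ZNF724 (-0.71) and ZNF695 (-0.34). ZNF117, with no such word in its own RefSeq window, and ERV3-1, with the word in its upstream window, both rose.

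Neighbours on the chromosome changed in both directions. Of 11 genes without zinc fingers around the cluster at 7q11.21, 6 rose and 3 fell from 10 to 1000 µM, with a median of 0.32, where 26.1% of all features rose and 26.0% fell. The 3 that fell were ASL (-0.81), TMEM248 (-0.43) and GUSB (-0.26), named after their values were seen. ERV3-1 is among those that rose. RABGEF1, an exchange factor for the endosomal GTPase Rab5, went from 29.5 ± 1.48 to 52.2 ± 4.16 CPM (log2 fold change 0.82), and CRCP, a subunit of RNA polymerase III, from 10.0 ± 1.22 to 36.7 ± 9.26 CPM (1.88; SD, n = 3 for each). Of the other zinc finger genes near the centromere of chromosome 7, ZNF713 alone of 7 listed could be tested and did not pass (-0.22, edgeR adjusted p = 0.228).

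The partners through which KRAB proteins act did not move in one direction. Of 26 genes for the corepressor and its relatives, histone deacetylases, remodellers, heterochromatin proteins, and histone and DNA methylation, 7 rose and 8 fell from 10 to 1000 µM (median 0.08), near the 26.1% and 26.0% of all features. Of the 8 that fell, DNMT1, DNMT3A, DNMT3B and UHRF1 act in DNA methylation and EHMT2 is a histone methyltransferase. The others that fell were CHD3, MTA2 and TRIM24. The 7 that rose were TRIM33, CHD4, MORC2 (0.56), ATF7IP (0.47), CBX3 (0.42), ZNF274 (0.34) and SMARCAD1 (0.28). From 100 to 1000 µM 5 rose and 9 fell (median -0.16), beside 21.8% and 22.3% of all features. TRIM28 stood at 0.11 (edgeR adjusted p = 0.578) and SETDB1 at 0.10 (edgeR adjusted p = 0.288) against 10 µM. Against 100 µM TRIM28 was lower, at -0.41 (edgeR adjusted p = 0.0433), and SETDB1 higher, at 0.31 (edgeR adjusted p = 0.00367). TRIM33, a relative of TRIM28, rose from 76.7 ± 3.56 to 159.0 ± 13.1 CPM, and the remodelling ATPase CHD4 rose from 166.0 ± 9.54 to 317.0 ± 29.7 CPM. Its paralog CHD3 fell from 52.4 ± 0.434 to 29.5 ± 2.73 CPM (SD, n = 3 for each).

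**Figure D4:**
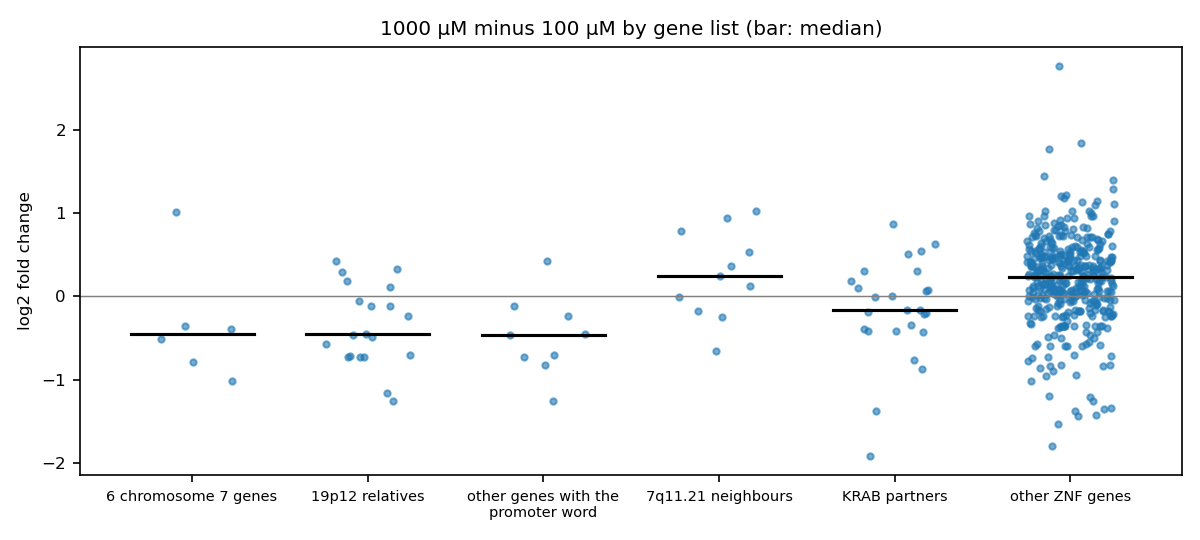
Log2 fold change at 1000 µM minus 100 µM (y axis) of each tested gene in 6 lists (x axis; sideways spread is for legibility), with the median as a bar; ERV3-1 is among the 7q11.21 neighbours. The medians are -0.45 for the 6 chromosome 7 genes, -0.46 for the 19p12 relatives and for other genes with the promoter word, 0.24 for the neighbours, -0.16 for the KRAB partners and 0.23 for other ZNF genes.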

How the data were processed

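RNA of HepG2 cells was sequenced in 21 libraries. The authors deposited a table of counts per gene; per the submitters' processing notes HISAT2, DESeq2 and the build GRCh38 were used, with no version or role given. The settings of the read counting are not given in the sources used here. In the table, 21 further per-sample columns and 2 summary columns were not used.

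The members and all gene lists were chosen with earlier results of these data known. Every gene of the cluster is named at each dose. Of a list, up to 3 genes are named by rule. They passed with the largest change from 10 to 1000 µM and had a mean of at least 1 CPM. Other genes were named beyond that rule after their values were seen. These are TRIM28, SETDB1, the other KRAB partners that fell or rose, ASL, TMEM248, GUSB, ZNF713, ZNF619 and the genes with the promoter word. ETAA1 and the others most alike are the 5 with the highest Pearson correlation to the mean standardised profile.

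Counts were filtered by group (17951 features left), scaled by trimmed mean of M values and fitted for all 7 groups together with edgeR 4.0.16 (quasi-likelihood, robust) in R 4.3.3. P-values were adjusted by Benjamini-Hochberg over all features, with a threshold of 0.05. CPM used the same scaling, with a prior count of 2 for log2 CPM. Library sets came from clustering 13 mitochondrial mRNAs. In simulated counts for 1000 minus 10 µM (17951 features, 200 changed by 1 on the log2 scale), 172 changed features were recovered with 7 false calls. Alternatives were DESeq2 1.42.0, limma 3.58.1 (voom), other filters, fewer groups, the library set or replicate number as a term, and leaving out each library. Same-numbered replicates did not deviate together: mean correlations ran from -0.108 to 0.152, and 1 of 21 pairs of groups was over 0.1.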

Additional observations from a re-analysis of the deposited data

How the results depend on the processing

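From 10 to 1000 µM, 3 to 5 of the 6 genes passed when 1 library was left out (5 with all; 3 without 1000 µM replicate 1). From 100 to 1000 µM the range was 4 to 6, and 3 passed with only those 2 groups in the fit. ZNF117 kept log2 fold changes of 0.96 to 1.12 against 10 µM and 0.95 to 1.1 against 100 µM in those fits. From 10 to 100 µM the range was 1 to 2, and 0 passed with the library set as a term. From 0.1 to 10 µM the range was 0 to 3, and 0 passed with no filter or with the set as a term. Against the control with the set as a term, 6, 1, 0, 1 and 5 passed for 0.01, 0.1, 10, 100 and 1000 µM; folds were -0.68 to -0.41 for 10 µM and -0.84 to -0.32 for 100 µM, with wider SEs. At 0.01 µM the leave-one-out range was 0 to 1, with 5 by DESeq2's Wald test and 1 of 5 tested at a mean of at least 5 CPM; at 0.1 µM DESeq2 gave 1. At 1 µM the range was 0 to 4; 0 passed with no filter, with the replicate block or with only the 2 groups, and DESeq2 gave 5. At 10, 100 and 1000 µM the counts were 6, 5 and 6 in every leave-one-out fit. The replicate block gave 0, 2, 2, 6 and 5 genes in the comparisons between doses, in the order of the report.

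Directions turned only where the gene passed in neither fit. With the set as a term these were ERV3-1 from 0.1 to 10 µM (0.08), from 10 to 100 µM (-0.01) and against control at 10 µM (0.05) and 100 µM (0.04), ZNF138 (-0.23) and ZNF273 (-0.13) from 10 to 100 µM, and ZNF92 from 10 to 1000 µM (-0.02). ZNF273 from 10 to 100 µM also turned by limma (-0.03) and DESeq2 (-0.01), and its leave-one-out range was -0.07 to 0.13. Leave-one-out ranges that spanned 0 were those of ZNF138 (-0.02 to 0.18) and ZNF117 (-0.03 to 0.08) from 10 to 100 µM, and of ERV3-1 from 0.01 to 0.1 µM (-0.01 to 0.08) and at 0.1 µM against control (-0.09 to 0.02). ERV3-1 at 0.1 µM against control was 0.0 with no filter. With a prior count of 0.5, log2 CPM of ZNF138 at 0.01 µM moved to 2.9. The causes were not tested. With no filter, ZNF273 had an edgeR adjusted p of 0.0512 from 10 to 1000 µM and 0.0569 from 100 to 1000 µM, and with only the 2 groups ZNF138 had 0.0595 from 10 to 1000 µM. The lowest raw counts in a library were 83 for ZNF273 and 114 for ZNF138; the part of depth in the lost calls was not tested.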

Other observations

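Zinc finger genes outside these lists changed in both directions. The 401 tested have a symbol starting ZNF and leave out the cluster and the listed 19p12 relatives, chromosome 7 genes and KRAB partners. Relatives not on those lists stay in, and ZNF695, which has the promoter word, is among the 401. From 100 to 1000 µM 137 of them rose and 37 fell, with a median log2 fold change of 0.23, where 21.8% of all features rose and 22.3% fell. From 10 to 1000 µM 134 rose and 82 fell, with a median of 0.14, where 26.1% of all features rose and 26.0% fell. The difference from the chromosome 7 genes was not tested. Among those that passed with a mean of at least 1 CPM, the changes of greatest size from 10 to 1000 µM were falls (below that level ZNF619 stood at 4.19): ZNF341, an activator of STAT3 transcription, went from 17.4 ± 1.11 to 2.31 ± 0.872 CPM, ZNF76 from 72.4 ± 2.66 to 12.9 ± 1.6 CPM and ZNF114 from 57.2 ± 4.58 to 12.4 ± 1.56 CPM (SD, n = 3 for each; log2 fold changes -2.93, -2.49 and -2.20 in the edgeR fit). All 3 had also fallen from 10 to 100 µM, by 1.40, 1.53 and 1.63 on the log2 scale. ZNF107 and ZNF92 rose there, but did not pass with the library set as a term.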
